A study of Homo sapiens with 7 samples.

Results

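The cytosolic heat shock chaperones described here are 10 genes of the HSP70, HSP110, HSP90, J-domain and small heat shock protein families, taken by name from a table of 23710 genes: HSPA8, HSPA1A, HSPA1B, HSPA4, HSPH1, HSP90AA1, HSP90AB1, DNAJA1, DNAJB1 and HSPB1. They were selected on earlier results of these same libraries, in which HSPA8 and HSP90AA1 differed between PEN-FFW or PEN-WT and PEN, so every value is a description, and all 10 passed the filter on low values used for the whole table (a mean of at least 50 normalized counts), as did 12578 genes in all. The cells were SNU398, an established human hepatocellular carcinoma line that expresses the transcription factor SALL4, and each RNA library came from cells given 30 µM of 1 peptide for 8 hours. Penetratin (PEN), a cell-penetrating carrier peptide, is the part that all these peptides share. By what is known of the study, PEN-FFW joins it to an engineered variant of the SALL4 segment that binds the NuRD subunit RBBP4, PEN-WT to the native segment and PEN-MUT to a mutated control segment. There was 1 library per peptide and no untreated library, so no difference has a replicate check, no p-value was computed, and an effect common to all 4 peptides cannot be seen. The question behind the comparisons is which transcripts differ when a SALL4-derived peptide takes the place of a control peptide. Here SALL4-derived names PEN-FFW and PEN-WT only, and PEN-MUT, with its mutated segment, is counted with PEN as a control.

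Cytosolic chaperones bind unfolded stretches of other proteins and keep them from clumping until they fold. HSP70 proteins do this in cycles driven by ATP, in which J-domain proteins such as DNAJA1 and DNAJB1 deliver the client and start ATP hydrolysis, and HSP110 proteins such as HSPA4 and HSPH1 exchange the nucleotide so that the client is let go. HSP90 proteins receive many clients, kinases and steroid receptors among them, from HSP70, and small heat shock proteins such as HSPB1 hold unfolded clients without using ATP. The heat-responsive members are switched on by heat shock factor HSF1, which binds as a trimer to heat shock elements, runs of the unit NGAAN in alternating orientation.

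The promoters of the members were searched for such elements, because a shared control element is what the family is known for. The windows run from 250 bases before to 50 after each annotated start in RefSeq on GRCh38.p14, a later build than the hg19 used for the expression table, and all 10 members matched by symbol. A run of 3 units was taken as GAANNTTCNNGAA or TTCNNGAANNTTC, each of which is the reverse complement of the other, so both strands were covered. It lay in a window of 4 of the 10 members (HSPA8, HSP90AA1, HSP90AB1 and DNAJA1) and of 166 of the 27305 genes with a window (0.608%). A run of 2 units, GAANNTTC or TTCNNGAA, is contained in the longer one and lay in a window of 8 of the 10 members and of 16.2% of all genes with one. HSPA4 and HSPH1 had neither, which says only that these letters are not in these windows. The stretches that hold the elements are printed from the 5′ end on the strand of the gene, with the 3-unit runs in capitals for the first 4 genes and the 2-unit runs in capitals for HSPA1A, HSPA1B and HSPB1. Except for DNAJA1 and HSPB1, each ends at the base before the start.
HSPA8: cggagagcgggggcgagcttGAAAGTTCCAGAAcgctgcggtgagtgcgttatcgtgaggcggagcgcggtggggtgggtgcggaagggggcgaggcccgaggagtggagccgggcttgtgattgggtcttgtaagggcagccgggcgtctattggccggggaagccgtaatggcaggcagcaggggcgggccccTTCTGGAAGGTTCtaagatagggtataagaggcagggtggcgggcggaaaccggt
HSP90AA1: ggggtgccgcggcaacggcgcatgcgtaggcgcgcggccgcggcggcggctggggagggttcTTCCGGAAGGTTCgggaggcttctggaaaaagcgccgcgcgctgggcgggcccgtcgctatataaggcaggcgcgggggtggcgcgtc
HSP90AB1: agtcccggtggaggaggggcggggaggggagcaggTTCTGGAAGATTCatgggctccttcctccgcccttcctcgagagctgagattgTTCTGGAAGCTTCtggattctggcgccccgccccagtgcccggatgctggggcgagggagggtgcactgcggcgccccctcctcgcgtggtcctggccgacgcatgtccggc
DNAJA1: ccgggcgGAACTTTCCAGAAcgctcgg
HSPA1A: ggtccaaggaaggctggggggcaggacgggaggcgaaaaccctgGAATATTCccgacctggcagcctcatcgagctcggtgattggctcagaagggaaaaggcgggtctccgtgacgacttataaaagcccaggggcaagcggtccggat
HSPA1B: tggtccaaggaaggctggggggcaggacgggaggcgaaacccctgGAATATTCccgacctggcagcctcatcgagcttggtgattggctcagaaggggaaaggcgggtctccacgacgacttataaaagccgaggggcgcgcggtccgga
HSPB1: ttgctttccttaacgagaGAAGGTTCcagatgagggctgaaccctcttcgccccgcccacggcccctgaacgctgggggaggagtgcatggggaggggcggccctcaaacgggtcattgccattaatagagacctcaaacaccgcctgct
In GRCh38.p14 these are chr11:123062137-123062386 (minus strand), chr14:102087045-102087194 (minus strand), chr6:44247743-44247942, chr9:33025269-33025295, chr6:31815393-31815542, chr6:31827588-31827737 and chr7:76302473-76302622, the last 5 on the plus strand. HSPA8 held 1 element that begins at position -230 from its start and a second at -55. HSP90AB1 also held 2, at -165 and -112 in 1 of its 3 windows, and HSP90AA1 held 1 at -88 in 1 of its 2 windows. In DNAJA1 the 3-unit run began 4 bases into the transcript. The promoter windows of HSPA1A and HSPA1B were near copies, with 277 of 299 aligned bases identical (92.6%).

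Depth was 27347377 reads in genes above the floor for PEN-FFW, 40717633 for PEN-WT, 32043544 for PEN-MUT and 37784093 for PEN. Of the liver cell genes checked, GPC3, an oncofetal surface proteoglycan, had between 998 and 1281 normalized counts. Albumin (ALB) had between 83.1 and 157, AFP and APOA1 stayed under 20, and APOB, TTR, SERPINA1, HNF4A, KRT8 and KRT18 were at the floor of 5 in all libraries, so most defining liver genes were absent or very low in these cells. Among markers of other cells, CD3E, HBB and PECAM1 were at the floor, PDGFRB was at most 6.72 and PTPRC had between 298 and 373. COL1A1 had 221 with PEN-FFW, 182 with PEN-WT, 156 with PEN-MUT and 127 with PEN, and its part in the results was not tested.

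Together the 10 genes took 1.06% of reads with PEN-FFW (95% Wilson interval 1.06 to 1.07), 1.10% with PEN-WT (1.09 to 1.10), 1.26% with PEN-MUT (1.26 to 1.26) and 1.32% with PEN (1.31 to 1.32). Their summed normalized counts were 267950 with PEN-FFW, 346833 with PEN-WT, 404107 with PEN-MUT and 417355 with PEN. The share was thus smaller with the 2 peptides that carry an intact or engineered SALL4 segment than with the 2 control peptides. It mostly reflects HSPA8, HSP90AA1 and HSP90AB1, which had 87200, 86870 and 76655 of the 290244 reads of the 10 genes with PEN-FFW. These intervals, and all those below, cover counting error only, since amplified fragments do not count molecules one by one and separate cultures vary. In bulk RNA, fewer cells that express a gene and less RNA per cell cannot be told apart.

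Per kilobase of transcript the members spanned a wide range of levels. On that scale the mean over the 4 libraries was 50166 normalized counts per kilobase for HSPA8, 36930 for HSP90AB1 and 32088 for HSP90AA1, followed by 5940 for HSPB1, 4688 for DNAJA1 and 3222 for HSPA4. Lower levels belonged to HSPH1 (1769), DNAJB1 (1555), HSPA1B (920) and HSPA1A (669). Each gene's range over the 4 libraries overlapped that of its neighbour in this order except between HSP90AA1 (24844 to 37722) and HSPB1 (4738 to 6653), between HSPA4 (2463 to 3646) and HSPH1 (1382 to 1998), and between DNAJB1 (1171 to 1728) and HSPA1B (701 to 1065). By mean normalized count, not divided by length, HSPA8, HSP90AA1 and HSP90AB1 ranked 6, 7 and 8 among the tested genes.

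**Figure D1:**
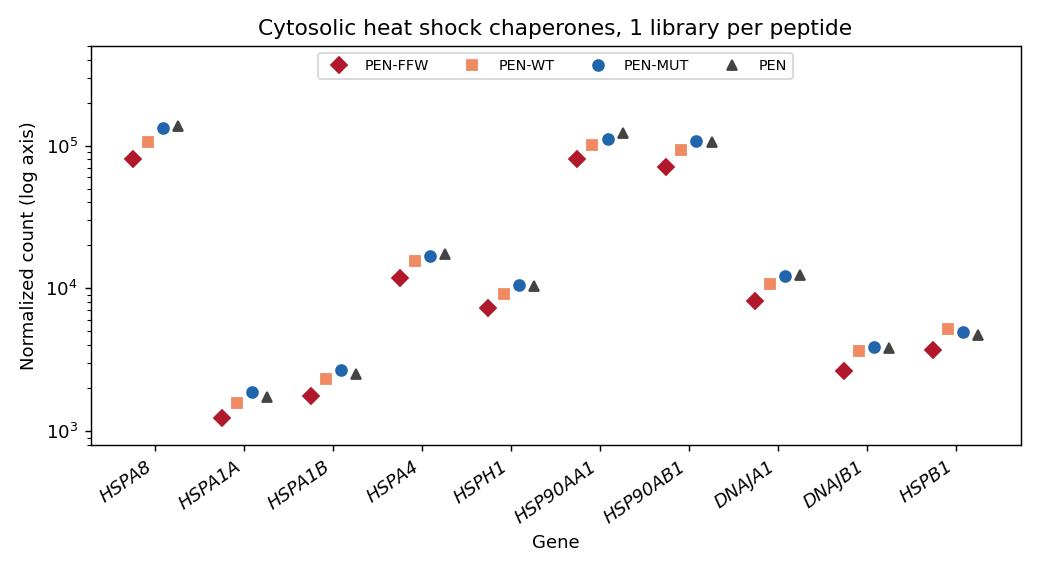
Normalized counts (log axis) of the 10 chaperone genes in the PEN-FFW (diamonds), PEN-WT (squares), PEN-MUT (circles) and PEN (triangles) libraries, 1 library each. PEN-FFW is the lowest of the 4 for each gene, with 80502 for HSPA8 against 136375 with PEN, while the library with the highest value differs between genes.

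Normalized counts are given as deposited, and a difference between 2 libraries is that of their log2(normalized count + 10), first minus second, less the value of the median tested gene for those 2 libraries. This centring matters because the median tested gene itself lay at -0.27 with PEN-FFW against PEN, -0.30 against PEN-MUT and -0.30 against PEN-WT as deposited, but within 0.03 of 0 in the pairs without PEN-FFW.

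Constitutive HSP70 differed from both control libraries more than any other member did, with PEN-FFW and with PEN-WT, when set beside all tested genes. That rank depends on the comparison genes: against PEN-MUT and beside genes of like GC content, HSPA1A was lower than HSPA8 with PEN-FFW (-0.42 and -0.37) and with PEN-WT (-0.32 and -0.29). Beside genes of the same abundance it was lower with PEN-FFW against PEN-MUT (-0.28 and -0.25), and with GC content and abundance together HSPA1B (-0.33) was slightly lower than HSPA8 (-0.32) with PEN-FFW against PEN. HSPA8 (GRCh37 chromosome 11, 122928197 to 122933938, minus strand, 9 exons) codes for the HSP70 that folds new proteins and strips clathrin from vesicles. It had 80502 normalized counts with PEN-FFW, 105362 with PEN-WT, 132065 with PEN-MUT and 136375 with PEN. The 2 control peptides lay close together and both SALL4-derived peptides lay below them, PEN-FFW the farthest. Its difference from PEN was -0.49 with PEN-FFW (95% counting interval -0.50 to -0.48), -0.40 with PEN-WT (-0.41 to -0.39) and -0.07 with PEN-MUT (-0.08 to -0.06). Only 1.01% of tested genes were lower than HSPA8 with PEN-FFW against PEN, and 1.57% with PEN-WT against PEN. Against PEN-MUT the difference was -0.42 with PEN-FFW and -0.33 with PEN-WT, with 0.620% and 0.572% of tested genes lower.

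Heat-inducible HSP70 is made from the intronless neighbours HSPA1A (GRCh37 chromosome 6, 31783320 to 31785723) and HSPA1B (31795515 to 31798031), which encode the same protein. Of the distinct 50-base stretches of the HSPA1A transcript, 75.1% also occur in HSPA1B, so how reads were divided between the 2 genes is uncertain. How reads that fit both genes were counted is not known here, so the level of each, and any ratio to it, is uncertain as well. HSPA1A had 1229 normalized counts with PEN-FFW, 1575 with PEN-WT, 1889 with PEN-MUT and 1729 with PEN. HSPA1B had 1765 with PEN-FFW, 2306 with PEN-WT, 2680 with PEN-MUT and 2509 with PEN. In both genes PEN-MUT was the highest library and PEN-FFW the lowest. The ratio of HSPA1A to HSPA1B was 0.696 with PEN-FFW, 0.683 with PEN-WT, 0.705 with PEN-MUT and 0.689 with PEN, with overlapping counting intervals. Relative to the median gene HSPA1A stood at -0.22 with PEN-FFW against PEN (-0.32 to -0.12), -0.16 with PEN-WT (-0.25 to -0.08) and 0.11 with PEN-MUT (0.02 to 0.20). HSPA1B stood at -0.23, -0.15 and 0.07 in the same order, the last with an interval that includes 0. The differences from PEN-MUT were larger, with HSPA1A at -0.32 with PEN-FFW and -0.26 with PEN-WT. At these levels HSPA8 had 65.5 times the normalized count of HSPA1A with PEN-FFW, 66.9 times with PEN-WT, 69.9 times with PEN-MUT and 78.9 times with PEN.

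The 2 cytosolic HSP90 genes were lower in both SALL4-derived libraries than with PEN, and they parted with PEN-MUT. HSP90AA1 (GRCh37 chromosome 14, 102547079 to 102606036, minus strand) codes for the stress-inducible HSP90 alpha. It had 80197 normalized counts with PEN-FFW, 100386 with PEN-WT, 111970 with PEN-MUT and 121765 with PEN. HSP90AB1 (GRCh37 chromosome 6, 44213903 to 44221625) codes for the constitutive HSP90 beta and had 70767, 93078, 107181 and 106400 normalized counts with PEN-FFW, PEN-WT, PEN-MUT and PEN. The difference of HSP90AA1 from PEN was -0.33 with PEN-FFW (-0.34 to -0.32), -0.31 with PEN-WT (-0.32 to -0.30) and -0.14 with PEN-MUT (-0.15 to -0.13), the lowest of the 10 members with PEN-MUT. HSP90AB1 was at -0.32 with PEN-FFW (-0.33 to -0.31), -0.22 with PEN-WT (-0.23 to -0.21) and -0.01 with PEN-MUT, where its interval includes 0. The normalized count of HSP90AA1 was 1.13 times that of HSP90AB1 with PEN-FFW (1.12 to 1.14), 1.08 with PEN-WT (1.07 to 1.09), 1.04 with PEN-MUT (1.04 to 1.05) and 1.14 with PEN (1.14 to 1.15). Processed copies could take or lend reads, since 19.1% of the 50-base stretches of HSP90AA1 and 19.7% of those of HSP90AB1 occur in transcripts of other genes, and 16.8% of those of HSPA8.

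The HSP110 members, which exchange nucleotide on HSP70, shared no 50-base stretch with any other annotated transcript. HSPA4 (GRCh37 chromosome 5, 132387705 to 132442141, 19 exons) had 11760 normalized counts with PEN-FFW, 15496 with PEN-WT, 16863 with PEN-MUT and 17405 with PEN. HSPH1, which codes for HSP105 (GRCh37 chromosome 13, 31709110 to 31736525, minus strand, 18 exons), had 7250, 9057, 10477 and 10315 in the same libraries. Both were lowest with PEN-FFW, then with PEN-WT, and their 2 control libraries lay close together. HSPA4 was at -0.30 with PEN-FFW against PEN (-0.33 to -0.26) and -0.20 with PEN-WT (-0.23 to -0.17). HSPH1 was at -0.24 (-0.28 to -0.20) and -0.22 (-0.25 to -0.18). With PEN-MUT against PEN, HSPA4 stood at -0.07 and HSPH1 at 0.0013, with an interval for HSPH1 from -0.04 to 0.04.

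The J-domain partners of HSP70 differed from each other with PEN-WT. DNAJA1 (GRCh37 chromosome 9, 33025271 to 33039905) had 8173 normalized counts with PEN-FFW, 10746 with PEN-WT, 12205 with PEN-MUT and 12361 with PEN. DNAJB1, the HSP40 that works with inducible HSP70 (GRCh37 chromosome 19, 14625581 to 14671203, minus strand), had 2626, 3658, 3875 and 3788 in the same libraries. PEN-WT thus lay well below both controls for DNAJA1 and only slightly below them for DNAJB1. Against PEN, DNAJA1 was at -0.33 with PEN-FFW (-0.36 to -0.29) and -0.23 with PEN-WT (-0.27 to -0.20), whereas DNAJB1 was at -0.26 (-0.32 to -0.19) and -0.08 (-0.14 to -0.02). PEN-MUT was at -0.04 for DNAJA1 and 0.01 for DNAJB1. The span of DNAJB1 overlaps TECR on the opposite strand, and that of HSP90AA1 overlaps WDR20 likewise, without overlap of canonical exons, and the strand setting of the counting is not given in the sources used here.

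HSPB1 stood apart from the other members. It codes for the small heat shock protein HSP27 (GRCh37 chromosome 7, 75931990 to 75933612, 3 exons) and had 3682 normalized counts with PEN-FFW, 5169 with PEN-WT, 4902 with PEN-MUT and 4708 with PEN. It was the only member with PEN-WT as its highest library. Its difference from PEN was -0.08 with PEN-FFW (-0.14 to -0.03), 0.10 with PEN-WT (0.05 to 0.15) and 0.04 with PEN-MUT (-0.02 to 0.09). HSPB1 also has the highest GC content of the 10 transcripts, at 65.3%, and transcript GC content moved with these differences over the whole table, as given below.

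**Figure D2:**
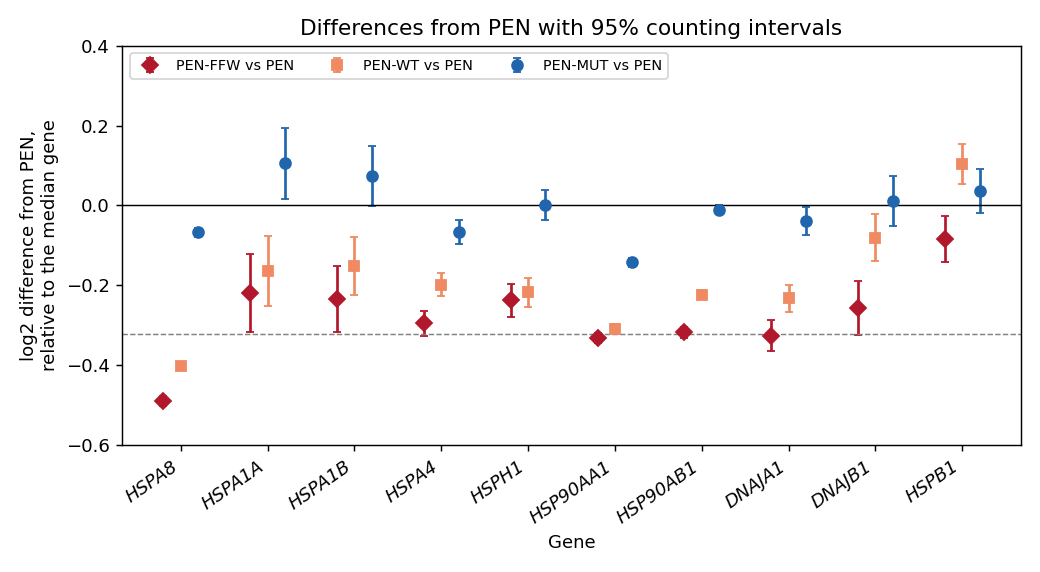
Log2 difference from the PEN library, centred on the median tested gene, of the 10 genes with PEN-FFW (diamonds), PEN-WT (squares) and PEN-MUT (circles), with 95% counting intervals from 1 library per peptide; the dashed line marks the threshold of -0.32. PEN-FFW lies below 0 for all 10 genes, from -0.49 to -0.08, PEN-WT for 9, and PEN-MUT spreads around 0 from -0.14 to 0.11.

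As a group the members were lower with PEN-FFW and PEN-WT than with either control peptide, mostly by less than 0.3219 on the log2 scale, the size taken as a threshold and written 0.32 for short. With PEN-FFW against PEN the median of the 10 was -0.28, where the median of all tested genes is 0 by construction. There 3 members (HSPA8, HSP90AA1 and DNAJA1) were at least 0.32 lower, against 5.67% of all tested genes. DNAJA1 was just inside the threshold at -0.326 and HSP90AB1 just outside it at -0.318. With PEN-WT against PEN the median was -0.21, 9 of 10 were below the median gene, and HSPA8 alone passed the threshold, against 3.53% of tested genes. PEN-MUT against PEN had a median of -0.0047, which was 0.02 in the values as deposited, with 5 members on each side of 0 and 0 at least 0.32 lower, against 3.14% of tested genes. These 3 comparisons share the PEN library, so their values are given side by side and not as separate evidence.

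Against PEN-MUT the medians were close to those against PEN, but the order of the members differed. With PEN-FFW, HSP90AA1 was at -0.18 against PEN-MUT and -0.33 against PEN, and HSPA1A at -0.32 and -0.22. The median of the members was -0.27 with PEN-FFW and -0.19 with PEN-WT. HSPA8 was the member at least 0.32 lower in each, against 2.49% of tested genes with PEN-FFW and 0.596% with PEN-WT. HSPA1A and HSPA1B were the next lowest in both. All 10 members were below the median gene with PEN-FFW against PEN-MUT, and 9 with PEN-WT against PEN-MUT, where HSPB1 was at 0.08 (0.02 to 0.13). By construction 50% of all tested genes are below it in each pair.

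The 2 SALL4-derived peptides, which differ in the SALL4 segment and shared dose and time, had a smaller median difference between them than either had from PEN, but this order depends on the centring. In the values as deposited the median of the members was -0.39 with PEN-FFW against PEN-WT and -0.18 with PEN-WT against PEN, and for HSPB1 and DNAJB1 PEN-WT lay nearer to PEN than to PEN-FFW also after centring. With PEN-FFW against PEN-WT the median of the members was -0.09, with 0 of 10 at least 0.32 lower, against 1.29% of tested genes. HSPB1 was lowest at -0.19 (-0.24 to -0.13) and DNAJB1 next at -0.18 (-0.24 to -0.11). HSPA8 stood at -0.09 (-0.10 to -0.07). For HSPH1 (-0.06 to 0.02) and HSPA1A (-0.15 to 0.04) the counting interval of the difference includes 0, which does not show that the peptides act alike. For HSPH1 and HSP90AA1 the sign of this small difference turned with the comparison genes. It was 0.01 and 0.02 among genes of like GC content and 0.07 for both among genes of the same abundance. The difference of HSPA8 also turned among genes of the same abundance, to 0.0028, and was -0.06 among genes of like GC content.

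Abundance and GC content moved with the differences across the whole table, and both vary among the members. Across the 12578 tested genes, which share the same libraries, the Spearman correlation of the difference with the mean normalized count was -0.377 with PEN-FFW against PEN, -0.195 with PEN-WT and -0.0090 with PEN-MUT. With transcript GC content it was 0.364, 0.358 and 0.0886 over the 12103 genes with a value. Of the members, 6 (HSPA8, HSPA4, HSPH1, HSP90AA1, HSP90AB1 and DNAJA1) were in the most abundant twentieth of genes, 629 genes with a mean of at least 7879 normalized counts. The median gene there lay at -0.17 with PEN-FFW against PEN and -0.07 with PEN-WT. In that twentieth 8.43% of genes were at least 0.32 lower with PEN-FFW against PEN, and 3 of the 6 members.

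**Figure D3:**
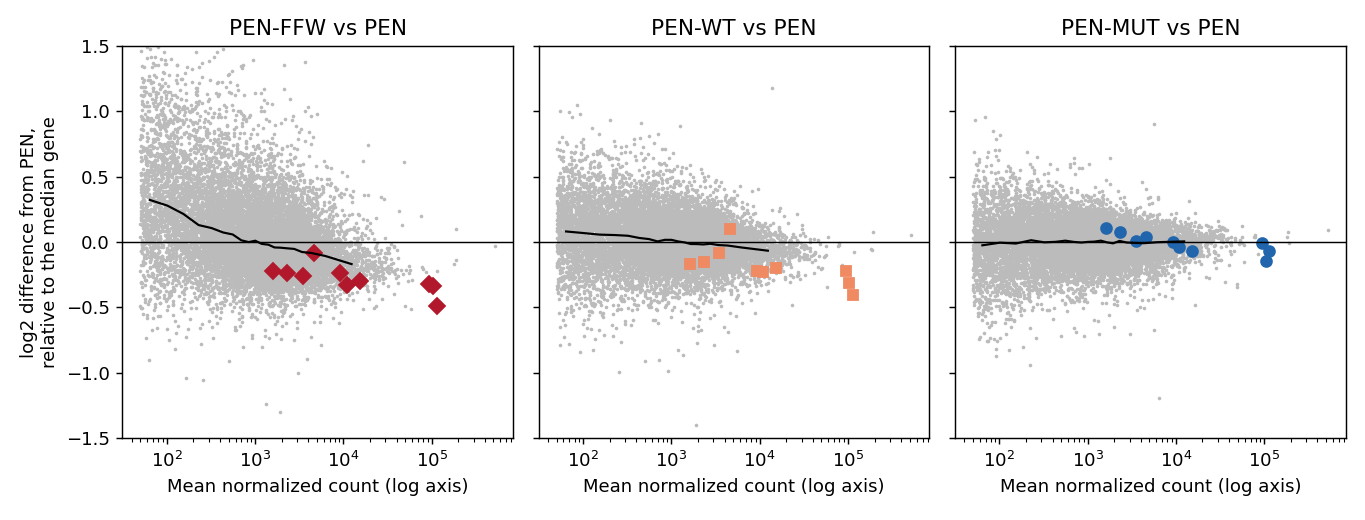
Log2 difference from PEN, centred on the median tested gene, against the mean normalized count (log axis) for all tested genes (grey), their median in 20 bins of abundance (black line) and the 10 chaperone genes (coloured); 53 genes lie outside the axis. In PEN-FFW the black line itself slopes down to -0.17 in the most abundant bin, and the chaperones HSPA8, HSP90AA1 and HSP90AB1 lie below it.

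Relative to genes of the same abundance the median of the members was -0.16 with PEN-FFW against PEN and -0.15 with PEN-WT against PEN, so that the distance between these libraries nearly closed. HSPA8 was then at -0.32 with PEN-FFW and -0.34 with PEN-WT, and HSPB1 at -0.0007 with PEN-FFW. Of the 629 genes in the bin of HSPA8, 0.954% were lower than it with PEN-FFW against PEN and 0.477% with PEN-WT. The top bin is wide, so the 20 most abundant genes were also looked at, a choice made after the values were seen. The 17 of them that are no members had a median of -0.21 with PEN-FFW against PEN and -0.06 with PEN-WT, and the lowest of these was ANXA1, an annexin, at -0.51 and -0.34.

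Set against genes of like GC content the order of the members changed while the median hardly moved. The median was -0.28 with PEN-FFW against PEN and -0.20 with PEN-WT. HSPB1 went to -0.34 with PEN-FFW and to -0.05 with PEN-WT, where its sign turned. The GC-rich HSPA1A (59.8%) and HSPA1B (58.8%) were then at -0.32 and -0.34 with PEN-FFW, and the GC-poor HSPH1 (39.6%) at -0.16. HSPA8, with 45.3% GC, was at -0.44 and -0.36. Set against genes of like GC content and abundance together, a setting chosen after the data were seen, HSPB1 was at -0.13 with PEN-FFW and 0.05 with PEN-WT. The part of GC content, abundance or library preparation in these differences was not tested.

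**Figure D4:**
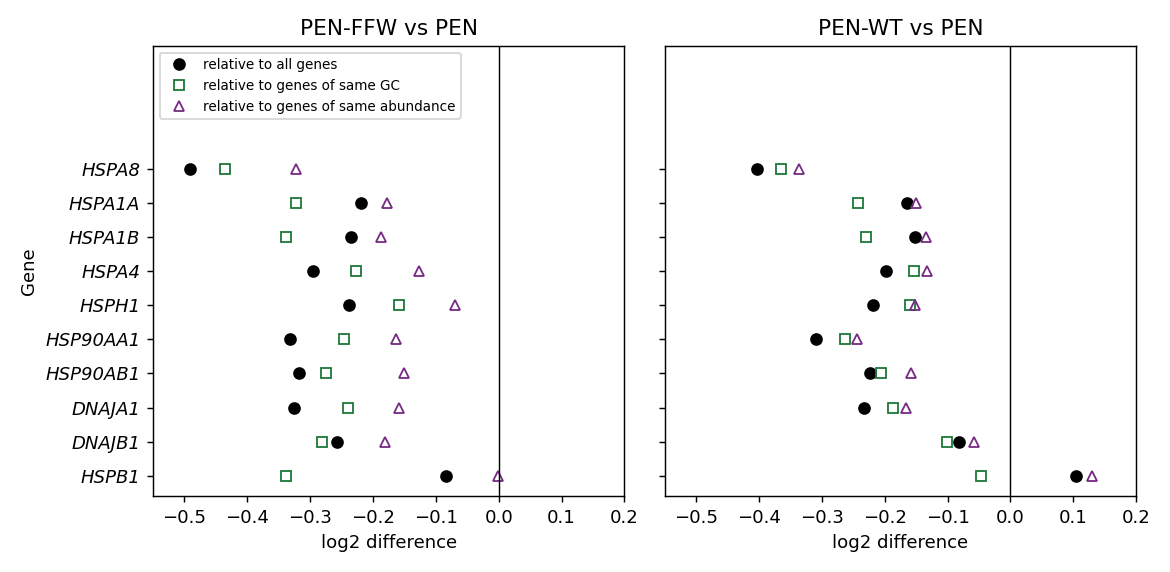
Log2 difference from PEN of the 10 genes with PEN-FFW (left) and PEN-WT (right), relative to all tested genes (filled circles), to genes of like GC content (open squares) and to genes of the same abundance (open triangles). HSPA8 stays the lowest gene on each measure with PEN-WT, from -0.40 to -0.34, while HSPB1 with PEN-FFW lies between -0.34 and -0.0007 depending on the measure.

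The 4 members with the 3-unit element shown above were the 4 lowest with PEN-FFW against PEN, with HSPA8 at -0.49, HSP90AA1 and DNAJA1 at -0.33 and HSP90AB1 at -0.32. They were also the 4 lowest with PEN-WT against PEN, a comparison that shares the PEN library. With PEN-FFW against PEN-MUT the 4 lowest were HSPA8, HSPA1A, HSPA1B and HSP90AB1, and HSP90AA1 was higher than all members but HSPB1. With PEN-FFW against PEN but set beside genes of like GC content, HSPB1 (-0.34), HSPA1B (-0.34) and HSPA1A (-0.32), which lack the 3-unit run, lay below HSP90AB1 (-0.28), HSP90AA1 (-0.25) and DNAJA1 (-0.24). Beside genes of the same abundance HSPA1B (-0.19), DNAJB1 (-0.18) and HSPA1A (-0.18) lay below HSP90AA1 (-0.16), DNAJA1 (-0.16) and HSP90AB1 (-0.15) in that pair. With PEN-WT against PEN the 4 members with the run stayed the lowest beside genes of the same abundance. The 38 other tested genes with a 3-unit run in a promoter window had a median of 0.0028 with PEN-FFW against PEN, beside -0.0086 for 9120 genes without it. At least 0.32 lower were 4 of the 38, beside 509 of the 9120 (5.58%), a count too small to read a difference from. With PEN-WT against PEN the medians were -0.02 with the element and -0.0013 without. A match is a description of the letters and not a bound site, and 3 of the 4 members with the element are also the 3 most abundant members.

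Partner chaperones were described from 12 further lists, chosen with earlier results known. The chaperonin CCT, a ring that folds actin and tubulin, had 8 of its 9 genes past the filter. Each of the 8 lay below the median gene when PEN-FFW was set against PEN, and their median was -0.32. At least 0.32 lower were 4 of the 8, against 5.67% of all tested genes and 8.43% of the most abundant twentieth. CCT2 had 13931 normalized counts with PEN-FFW, 19060 with PEN-WT, 21957 with PEN-MUT and 22687 with PEN, a difference from PEN of -0.43, -0.28 and -0.07. CCT6A (-0.38), CCT8 (-0.34) and CCT5 (-0.33) were the other subunits past the threshold. The median of the subunits was -0.18 with PEN-WT against PEN and -0.01 with PEN-MUT, and -0.15 with PEN-FFW relative to genes of the same abundance.

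HSP90 cochaperones, which load and release HSP90 clients, were below the median gene in 13 of 14 tested genes with PEN-FFW against PEN. Their median there was -0.24, with 1 at least 0.32 lower, against 5.67% of all tested genes. With PEN-WT against PEN 13 of 14 were also below it (median -0.13), with 0 past the threshold, against 3.53% of tested genes. Relative to genes of the same abundance these medians were -0.12 and -0.09. SUGT1, an adaptor of HSP90, was at -0.37 with PEN-FFW and -0.18 with PEN-WT, and NUDC, PPID and AHSA1, the activator of the HSP90 ATPase, were the others farthest from PEN. HSP70 cofactors lay nearer 0 when set beside all tested genes, with medians of -0.14 with PEN-FFW and -0.0070 with PEN-WT against PEN. Relative to genes of the same abundance their medians were -0.12 with PEN-FFW, as for the HSP90 cochaperones, and 0.0081 with PEN-WT. BAG1, BAG2, BAG4 and STUB1, which couple HSP70 to release or to ubiquitination, were the farthest, and none of the 9 passed the threshold. Prefoldin, which hands unfolded actin and tubulin to CCT, had a median of -0.17 with PEN-FFW, with PFDN2 at -0.49, PFDN5, PFDN6 and PFDN4 short of the threshold, and -0.07 with PEN-WT.

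Further genes of the same families had medians nearer 0. The 7 tested other HSP70 and HSP110 genes had medians of -0.10 with PEN-FFW, -0.0047 with PEN-WT and 0.10 with PEN-MUT against PEN. Among them HSPA14, which sits on ribosomes, was at -0.33 with PEN-FFW, HSPA12A at 0.22, HSPA1L at 0.21 and HSPA12B, with only 67.4 normalized counts, at 0.48. The strictly heat-induced HSPA6, named after its values were seen, missed the filter with 38.8 normalized counts with PEN-FFW, 25.6 with PEN-WT, 41.0 with PEN-MUT and 35.3 with PEN. The 11 tested other J-domain genes had medians of -0.03 with PEN-FFW, 0.04 with PEN-WT and 0.10 with PEN-MUT. DNAJB5 was at 0.52, 0.36 and 0.44 in these comparisons, higher with each of the 3 peptides than with PEN. DNAJB2 was at 0.29 with PEN-FFW, DNAJA2 at -0.30 and the ribosome-bound DNAJC2 at -0.27. Of 8 other small heat shock genes, HSPB11 alone passed the filter, at -0.17 with PEN-FFW, -0.07 with PEN-WT and 0.13 with PEN-MUT.

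**Figure D5:**
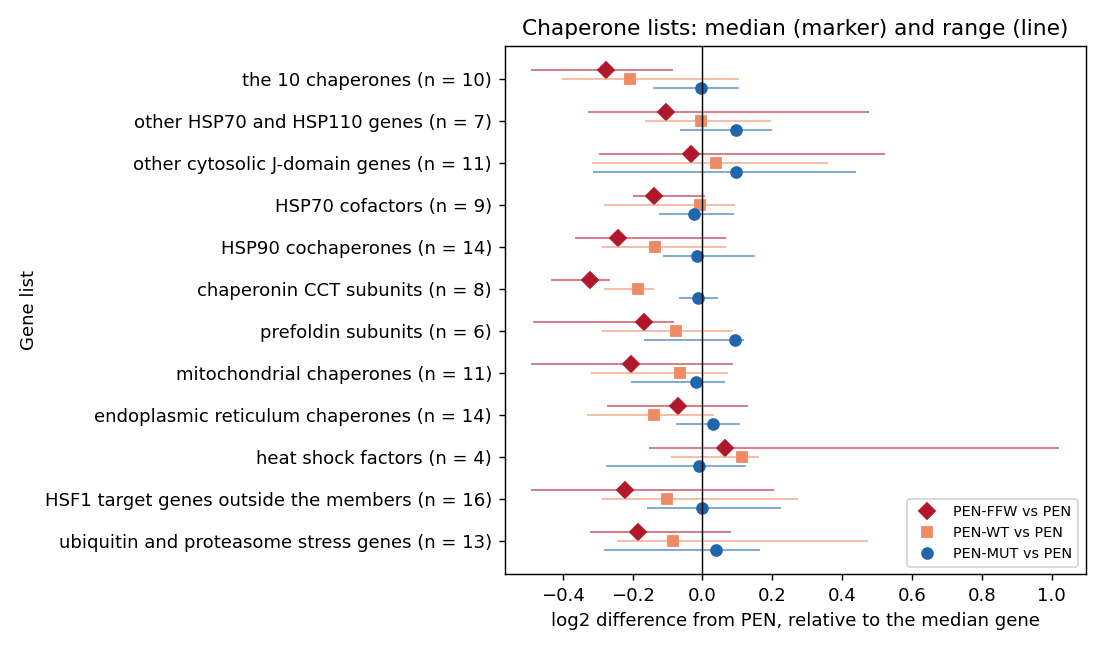
Median (marker) and range (line) of the log2 difference from PEN, centred on the median tested gene, for the 10 chaperones and 11 of the further lists with PEN-FFW (diamonds), PEN-WT (squares) and PEN-MUT (circles), with the number of tested genes. The CCT subunits have the lowest median with PEN-FFW (-0.32), next to the 10 chaperones (-0.28), and the PEN-MUT medians lie between -0.02 and 0.10.

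Mitochondrial chaperones had medians of -0.20 with PEN-FFW and -0.06 with PEN-WT against PEN. In them HSPE1, the lid of the mitochondrial chaperonin, was at -0.49 with PEN-FFW and -0.23 with PEN-WT, its partner HSPD1 at -0.31 and -0.24, and the nucleotide exchange factors GRPEL1 and GRPEL2 at -0.44 and -0.39 with PEN-FFW. The 14 endoplasmic reticulum chaperones had a median of -0.07 with PEN-FFW and -0.14 with PEN-WT, with HSP90B1, MANF, DNAJB11 and PDIA3 between -0.27 and -0.16 with PEN-FFW. The median of these 14 was 0.05 with PEN-FFW against PEN-WT, where that of the 10 cytosolic genes was -0.09. Genes of ubiquitination and the proteasome had a median of -0.18 with PEN-FFW and -0.08 with PEN-WT. PSMA3 was at -0.32, PSMD12 at -0.30, PSMC1 at -0.24 and PSMB7 at -0.23 with PEN-FFW. Relative to genes of the same abundance the medians with PEN-FFW against PEN were smaller or turned. They were -0.10 for mitochondrial chaperones, 0.03 for endoplasmic reticulum chaperones and -0.05 for the ubiquitin and proteasome genes. With PEN-WT they were -0.05, -0.10 and -0.02.

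The heat shock factors HSF1, HSF2 and HSF4 were not below the median gene with PEN-FFW or PEN-WT against PEN, although the normalized counts of HSF1 and HSF2 as deposited were lower with PEN-FFW than with PEN, and HSF1 was lower in both pairs when set beside genes of like GC content. HSF1, the factor that drives heat-induced transcription, had 3547 normalized counts with PEN-FFW, 4585 with PEN-WT, 4106 with PEN-MUT and 4196 with PEN, or 0.03 (-0.03 to 0.09), 0.10 (0.04 to 0.15) and -0.05 from PEN relative to the median gene. Its transcript has 63.9% GC, and beside genes of like GC content it was at -0.19 with PEN-FFW and -0.02 with PEN-WT. The interval of HSF2 with PEN-FFW (-0.02 to 0.22) and that of HSF4 with PEN-WT (-0.13 to 0.39) also include 0. HSF2 was at 0.10, 0.16 and 0.13, and HSBP1, which binds HSF1 and holds it back, at -0.15, -0.09 and 0.04. HSF4 had 285 normalized counts with PEN-FFW, 186 with PEN-WT, 137 with PEN-MUT and 165 with PEN. Its difference from PEN was 1.02 with PEN-FFW, 0.13 with PEN-WT and -0.28 with PEN-MUT (-0.57 to 0.02). The HSF4 transcript has 64.5% GC, and beside genes of like GC content it was at 0.81 with PEN-FFW and 0.01 with PEN-WT. Of 16 tested HSF1 target genes outside the 10, 15 were below the median gene with PEN-FFW against PEN and 13 with PEN-WT. Their medians were -0.22 and -0.10, or -0.09 and -0.06 relative to genes of the same abundance. At least 0.32 lower were 1 of the 16 (6.25%) with PEN-FFW and 0 with PEN-WT, beside 5.67% and 3.53% of all tested genes. The farthest of the 16 were HSPE1, TCP1, HSPD1 and AHSA1, 4 genes that other lists here also hold. Further genes of the 16 are in the cofactor, cochaperone or J-domain lists too, so this list is not separate from those.

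Genes closest to HSPA8 in their 3 differences from PEN were looked for among 6601 genes with a mean of at least 1000 normalized counts. By Euclidean distance over these differences, from 4 libraries, they were RPF2, a ribosome assembly factor (distance 0.080), SLC25A15, the mitochondrial ornithine carrier (0.081), TIPARP, a mono-ADP-ribosyltransferase (0.0825), MTAP, an enzyme of methionine salvage (0.106), and ANXA1 (0.106). RPF2 had 943 normalized counts with PEN-FFW, 1337 with PEN-WT, 1599 with PEN-MUT and 1670 with PEN. The nearest other member was HSP90AA1 at a distance of 0.20, which would rank 104 among these 6601 genes. HSPB1 was the farthest member at 0.66, which would rank 4070.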

How the data were processed

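RNA of SNU398 cells was sequenced from 1 library for each of 4 peptides; the 3 chromatin samples of the series are not analysed here. The authors deposited 1 table of log2 expression values with 23710 genes, and no per-sample column is left unmapped. The tools were STAR 2.4.0i and featureCounts 1.5.0-p1, and the build was hg19, per the submitters' processing notes. The sources used here do not give the annotation, strand setting or normalization method. In every column the lowest value was 2.32, the log2 of 5, and after the log was undone 100% of values above it lay within 0.1 read of a whole multiple of a step, 1 for each library. The steps were 0.923 for PEN-FFW, 0.776 for PEN-WT, 1 for PEN-MUT and 0.840 for PEN, and dividing by them gave the reads behind the 95% counting intervals, taken by the Poisson law on the log2 scale.

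Differences used a pseudocount of 10 and were centred on the median of the 12578 tested genes, those with a mean of at least 50 normalized counts. With 1 library per peptide no test was possible, so a gene is counted past a log2 difference of 0.3219, and the steps were checked on simulated data. One liver marker is not reported here. The members, lists and rules were chosen with earlier results of these data known. All members and heat shock factors are named, and of each other list at most 4 tested genes, those farthest from PEN with PEN-FFW. Positions, transcript lengths and GC content came from the canonical transcripts of GENCODE 44 on GRCh37, in which 20574 genes matched by symbol and 1572 by a RefSeq synonym. Bins of abundance and GC content numbered 20. Alternatives were values as deposited, median-ratio scaling, a pseudocount of 1, no filter, matching on GC content or abundance or both, and the summed HSPA1A and HSPA1B. Analyses used Python 3.11.15, numpy 2.4.6, pandas 2.3.3 and scipy 1.17.1.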

Additional observations from a re-analysis of the deposited data

How the results depend on the processing

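No replicate could be left out, and no paired analysis was possible because each peptide had 1 library. The median of the 10 members stayed below 0 with PEN-FFW and PEN-WT against PEN and PEN-MUT under all 8 alternatives. With values as deposited it was -0.55 with PEN-FFW against PEN, -0.57 against PEN-MUT and -0.39 against PEN-WT, with 10, 10 and 9 members past the threshold, as were 41.3%, 45.6% and 44.8% of all tested genes. Without the filter on low values, where most added genes are at or near the floor, the same 3 pairs gave -0.55, -0.57 and -0.35, with 10, 10 and 7 members and 23.3%, 25.7% and 18.7% of all genes past it. Set against genes of like GC content the median was -0.16 with PEN-WT against PEN-MUT (0 members past the threshold of 0.3219, HSPA1A being at -0.3206) and -0.064 with PEN-FFW against PEN-WT, and 3 members passed the threshold with PEN-FFW against PEN-MUT. Relative to genes of the same abundance it was -0.16 with PEN-FFW and -0.15 with PEN-WT against PEN, -0.13 in both against PEN-MUT and -0.0055 with PEN-FFW against PEN-WT. There 1 member passed the threshold with PEN-FFW against PEN and 0 with PEN-FFW and with PEN-WT against PEN-MUT. With GC content and abundance together, a setting chosen after seeing the data, the medians were -0.16 with PEN-FFW and -0.15 with PEN-WT against PEN, -0.14 and -0.13 against PEN-MUT and -0.0057 with PEN-FFW against PEN-WT. That setting left 0 members past the threshold with PEN-WT against PEN, HSPA8 being at -0.3216, and 2 with PEN-FFW and 0 with PEN-WT against PEN-MUT. The cause of these shifts was not tested. Median-ratio scaling, a pseudocount of 1 and summing HSPA1A with HSPA1B moved no median by more than the mean counting half-width of the 2 middle members. Under median-ratio scaling or a pseudocount of 1, DNAJA1 with PEN-FFW against PEN came just short of the threshold, and 2 members passed it. The share of all tested genes past the threshold is not given for these 2 settings or for matching on GC content or abundance. The counts of members there thus have no background to be read against.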
